A study of Mus musculus with 16 samples.

Results

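Respiratory complex I, the NADH:ubiquinone oxidoreductase of the inner mitochondrial membrane, is described here through 36 nuclear genes listed as encoding its subunits. Among them is Ndufa4, whose protein has since been assigned to complex IV and which is kept in all counts. The genes were taken from a list of Nduf symbols and matched by Ensembl identifier to the rows of each expression table, without use of their measured values. All 36 were found among the 30325 genes of the gonadal table and among the 30946 genes of the subcutaneous table. All 36 also passed the filter on low values in each depot, so no member was left out of a count.

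RNA had been sequenced from gonadal and subcutaneous fat of female mice, with 4 samples per vector in each depot and 16 in all. Every mouse was labelled as carrying the null allele B6.129P2-Lcn2tm1Aade/AkiJ, was of the C57BL/6J background and ate a diet labelled HF/HS. At 8 weeks of age the mice received by vein an adeno-associated virus of serotype 8 (AAV8) that carried lipocalin-2 (LCN2) or, as the control, green fluorescent protein (GFP), and fat was collected at 16 weeks. Both constructs were under the adiponectin promoter, which is active in fat cells, with a target sequence of microRNA-122 that limits expression in liver. By the labels, both groups therefore carry the null allele and virus, and they differ in the protein that the vector encodes. The extent of the deletion in the null allele is not in the labels, nor do they say whether samples of equal number in the 2 depots came from the same mouse.

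Complex I takes electrons from NADH, passes them along a flavin and a chain of iron-sulfur clusters to ubiquinone, and pumps protons into the intermembrane space. Its matrix arm holds the N module, where NADH is oxidised, and the Q module, where ubiquinone is reduced, while its membrane arm holds the proton pumps, whose catalytic subunits are encoded by mitochondrial DNA. Most of the nuclear genes encode accessory subunits that surround the catalytic core and are needed for assembly or stability. In white fat cells, mitochondrial respiration feeds fatty acid synthesis and re-esterification, and in brown and beige fat cells, which are rich in mitochondria, the proton gradient is spent on heat by uncoupling protein 1.

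The vector's own gene was higher in all LCN2 samples of both depots. Gonadal values are normalized counts, the reads of a gene divided by 1 size factor per sample, and subcutaneous values are on the rlog scale, a regularized log2 on which 1 unit is a doubling. Normalized counts of Lcn2 in gonadal fat were 103, 62.1, 70.0 and 89.5 in GFP replicates 1 to 4 and 186, 189, 522 and 481 in LCN2 replicates 1 to 4. Subcutaneous rlog values were between 7.76 and 8.37 with GFP and between 8.49 and 9.82 with LCN2. The groups did not overlap in either depot, and the two-sided exact permutation p was 0.0286 in each, the smallest that 4 against 4 samples can give. In the limma fit over all genes that is used below for the members, Lcn2 did not pass (gonadal adjusted p = 0.108, subcutaneous adjusted p = 0.308). Lcn2 was detected in every GFP sample, which goes against a null label read as absence of the transcript. Which part of the gene those reads cover cannot be read from the tables. Gonadal libraries held 35173260 to 42890102 reads, recovered from the deposited values, while the subcutaneous table keeps no read depth. Of the 13 fat cell markers all were present, and Adipoq, the adiponectin gene, lay between 83890 and 144729 normalized counts in gonadal fat and between 15.77 and 16.36 rlog in subcutaneous fat. Transcripts of other tissues were uneven, with 0.210% of reads from 14 skeletal muscle genes in gonadal LCN2 replicate 4 against at most 0.0211% elsewhere, and with lymph node genes highest in subcutaneous GFP replicates 1 and 2.

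The 36 genes are scattered over 15 chromosomes, and their transcripts are short, with a median length of 772.5 bases and a range from 382 (Ndufa6) to 2625.5 (Ndufs1). A divergent protein-coding neighbour, transcribed from the opposite strand and starting within 1000 bases, was annotated for 9 of 36 members (25%) and for 6.77% of 21924 protein-coding genes. An example is Ndufa7, whose neighbour is the ribosomal protein gene Rps28. RefSeq promoter windows of GRCm38.p6, from 250 bases before to 50 bases after a transcription start, were matched for 33 members and searched on both strands for motifs of 4 factors linked to mitochondrial genes. The NRF1 motif (GCGC and TGCGC with any 1 base between them) was found in 7 of 33 (21.2%) against 5.19% of 27025 genes, and the YY1 motif AANATGGCG in 7 (21.2%) against 2.76%. The ETS motif CCGGAAG, bound by GABPA, was found in 4 (12.1%) against 9.93%, and the ESRRA motif CAAGGTCA in 1 (3.03%) against 1.76%. Any of these motifs was present in 17 members (51.5%) and in 17.4% of all genes, and a match describes letters, not binding.

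Promoter windows are shown for Ndufa6, Ndufs7 and Ndufa5, which were among the members with the smallest p in both depots, and for Ndufb3, the member furthest in the other direction in gonadal fat. They are printed 5′ to 3′ on the strand of the gene, and capitals mark the NRF1 match in Ndufa6 and Ndufa5 (in the latter the reverse complement) and the YY1 match in Ndufs7. The Ndufb3 window holds none of the 4 motifs and therefore no capitals. The window of Ndufc2, also among the smallest p in both depots, holds none of the 4 either and is not shown. The coordinates in GRCm38.p6 are chr15:82354242-82354541 on the minus strand for Ndufa6 and chr10:80249199-80249498 on the plus strand for Ndufs7. They are chr6:24527641-24527940 on the minus strand for Ndufa5, at the more upstream of its starts, and chr1:58586147-58586446 on the plus strand for Ndufb3.
Ndufa6: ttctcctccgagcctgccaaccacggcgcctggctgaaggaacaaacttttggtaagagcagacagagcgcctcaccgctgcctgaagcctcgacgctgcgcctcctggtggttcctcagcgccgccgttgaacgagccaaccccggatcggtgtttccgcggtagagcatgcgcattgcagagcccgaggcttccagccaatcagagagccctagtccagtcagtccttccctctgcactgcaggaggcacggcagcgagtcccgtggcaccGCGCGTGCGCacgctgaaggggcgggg
Ndufs7: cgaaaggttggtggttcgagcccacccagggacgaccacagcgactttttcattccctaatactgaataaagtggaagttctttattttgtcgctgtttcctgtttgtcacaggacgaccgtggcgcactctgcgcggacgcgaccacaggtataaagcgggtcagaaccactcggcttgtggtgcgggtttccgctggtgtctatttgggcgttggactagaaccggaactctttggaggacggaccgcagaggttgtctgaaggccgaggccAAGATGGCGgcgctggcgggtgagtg
Ndufa5: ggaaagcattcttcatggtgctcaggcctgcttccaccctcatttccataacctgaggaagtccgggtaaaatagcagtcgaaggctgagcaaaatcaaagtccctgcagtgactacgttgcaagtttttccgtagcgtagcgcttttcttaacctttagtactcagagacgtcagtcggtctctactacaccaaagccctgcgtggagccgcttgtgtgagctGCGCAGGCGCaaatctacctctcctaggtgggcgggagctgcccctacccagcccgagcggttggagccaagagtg
Ndufb3: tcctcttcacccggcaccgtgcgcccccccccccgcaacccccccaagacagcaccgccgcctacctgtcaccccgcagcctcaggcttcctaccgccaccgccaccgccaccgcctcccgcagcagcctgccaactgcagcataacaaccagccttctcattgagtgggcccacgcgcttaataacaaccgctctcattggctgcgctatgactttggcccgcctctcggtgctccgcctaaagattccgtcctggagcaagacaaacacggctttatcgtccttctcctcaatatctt

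Transcript abundance differed widely among the subunit genes, and the order was nearly the same in both depots. In gonadal fat with GFP the normalized count per kilobase of transcript was 10160 ± 1965 (SD, n = 4) for Ndufa4, a protein first purified with complex I and since assigned to complex IV. It was 5974 ± 1654 for Ndufb9 and 5721 ± 999 for Ndufa6, which encode accessory subunits of the membrane arm and of the matrix arm. The lowest levels per kilobase were 1019 ± 277 for Ndufab1, the mitochondrial acyl carrier protein, 818 ± 208 for Ndufs4, an N module subunit, and 203 ± 43.9 for Ndufb2. The Ndufb2 level is uncertain, because its annotated transcripts run from 455 to 4371 bases. So is the Ndufab1 level, with transcripts of 1416 to 3479 bases, and its place among the lowest depends on the length used. Ndufb9 and Ndufa6 did not differ beyond their spread, whereas Ndufa4 stood above both by more than its SD. The rank correlation of these levels between the depots was 0.99 over the 36 genes, as a description, since gene length enters both.

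Some members share exonic bases with other genes, which matters where counting did not separate strands. In 13 members part of the exons overlaps a gene on the opposite strand, up to 39.0% of the bases in Ndufb6 (with Smim27) and 30.0% in Ndufa13 (with Tssk6). In 3 members there is an overlap on the same strand, the widest being 19.5% in Ndufb9. Ndufab1 also has an annotated processed copy, Ndufab1-ps. The strand setting of the counting is not given in the sources used here, so values of these members are uncertain to that extent.

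In gonadal fat no complex I gene passed the test between the vectors, and the members were divided in direction. Differences are LCN2 minus GFP on log2 of the normalized count plus 1, fitted with limma, and p-values rest on the spread between samples, which may be technical, since the labels give a group size but do not name separate mice. With Benjamini-Hochberg adjustment over all tested genes, 0 of 36 members passed an adjusted p of 0.05 (0.102% of 19536 genes did). At an unadjusted p under 0.05 there was 1 member (14.8% of all genes). Lower with LCN2 were 19 members and higher were 17 (48% of all genes were lower), and the median difference was -0.02 on the log2 scale against 0.01 for all genes. In none of the 36 did the groups separate completely, where 4.71% of all genes had every LCN2 sample below every GFP sample and 4.4% every one above. The standard error of a member's difference was between 0.11 and 0.28, and adjusted p ran from 0.326 to 0.999. Count tests on the 6 samples whose reads were accepted as whole (all GFP, LCN2 replicates 1 and 3) called 0 members with edgeR (0.00512% of all genes) and 0 with DESeq2 (1.18%). At an unadjusted p under 0.05 there were 0 members with edgeR (7.51% of all genes) and 0 with DESeq2 (8.3%).

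**Figure D1:**
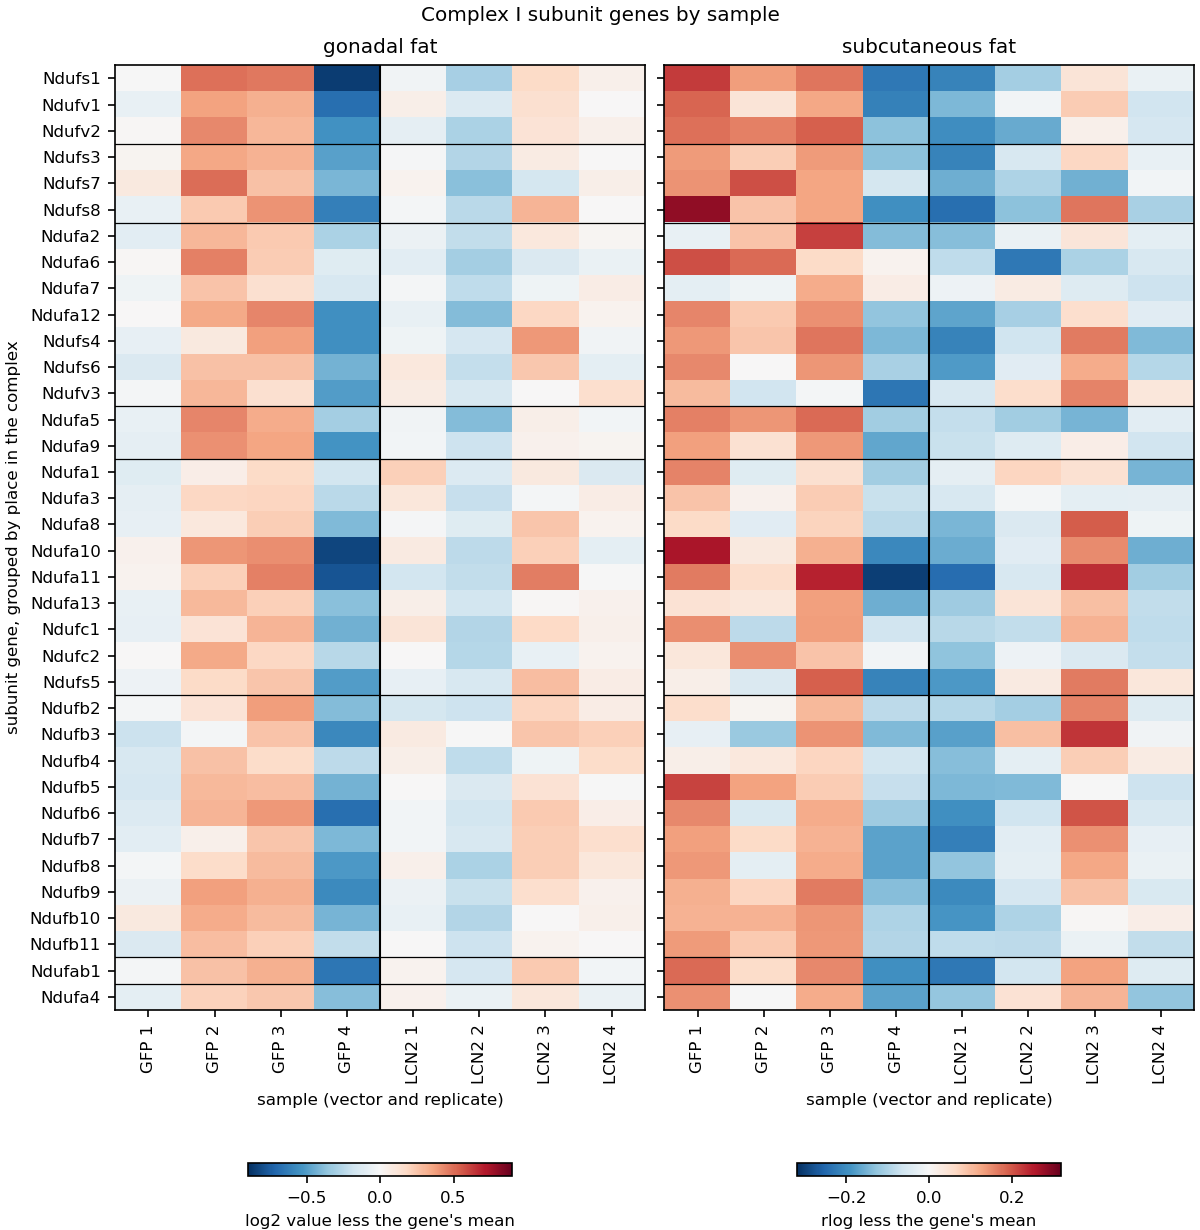
Deviation of each of the 36 complex I genes (rows, grouped by module) from its own mean over the 8 samples of a depot, in log2 units, for GFP replicates 1 to 4 and LCN2 replicates 1 to 4 (columns) in gonadal and subcutaneous fat. In gonadal fat the columns of GFP replicate 4 and LCN2 replicate 2 are low in all 36 genes, and those of GFP replicates 2 and 3 are high. In subcutaneous fat LCN2 replicate 1 is low in all 36.

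Ndufa6, an accessory subunit of the matrix arm that binds the acyl carrier protein, had the smallest p in both depots. Its normalized counts in gonadal fat were 1966, 2676, 2287 and 1814 with GFP and 1831, 1583, 1788 and 1878 with LCN2. Only GFP replicate 4 reached down into the LCN2 range. The means were 2185 ± 382 and 1770 ± 130 (SD, n = 4), a difference of -0.29 ± 0.13 (SE; limma, unadjusted p = 0.0461, adjusted p = 0.326). In subcutaneous fat the rlog values of Ndufa6 were 11.08, 11.06, 10.94 and 10.89 with GFP and 10.79, 10.65, 10.77 and 10.83 with LCN2. There the groups did not overlap, and the difference was -0.23 ± 0.06 (SE; limma, unadjusted p = 0.00599, adjusted p = 0.308).

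Among the catalytic subunits, those of the Q module lead the electrons from the N module to ubiquinone, and Ndufs7 carries the last iron-sulfur cluster of the chain. Ndufs7 had 2114, 2810, 2386 and 1494 normalized counts with GFP and 2034, 1532, 1778 and 2059 with LCN2 in gonadal fat. GFP replicate 4 was the lowest of all 8 samples and GFP replicate 2 the highest, so the groups overlapped, with a difference of -0.22 ± 0.19 (SE; limma, adjusted p = 0.640). Ndufs3, which helps to anchor the Q module, had 2728, 3411, 3321 and 1909 with GFP and 2654, 2228, 2811 and 2684 with LCN2 (-0.10 ± 0.18). Ndufs8, another iron-sulfur subunit, had 1222, 1510, 1693 and 835 with GFP and 1262, 1083, 1581 and 1283 with LCN2 (0.02 ± 0.21). In each of these genes GFP replicates 2 and 3 were above the other GFP samples and GFP replicate 4 was the lowest of 8.

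The N module subunits were ordered across the samples in the same way. Ndufv1, which binds NADH and the flavin, had 3937, 5300, 5144 and 2573 normalized counts with GFP in gonadal fat and 4274, 3787, 4556 and 4135 with LCN2 (0.04 ± 0.21). Ndufv2, its iron-sulfur partner, had 2826, 3787, 3453 and 1919 with GFP and 2650, 2297, 3052 and 2898 with LCN2 (-0.10 ± 0.20). Ndufs1, the large subunit with several iron-sulfur clusters, had 3935, 5566, 5483 and 2188 with GFP and 3864, 3212, 4456 and 4086 with LCN2 (-0.05 ± 0.28). The LCN2 samples lay inside the range of the GFP samples in all 3 genes. Ndufs1 varied most of all members over the 8 samples, with an SD of 0.43 on the log2 scale, and Ndufa1, a small membrane-arm subunit, varied least with 0.15.

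Of the other members named by their p in gonadal fat, Ndufb3 was the only one higher with LCN2. Ndufb3, a small subunit of the distal membrane arm, had 2007, 2273, 2743 and 1538 normalized counts with GFP and 2429, 2289, 2735 and 2663 with LCN2, a difference of 0.27 ± 0.16 (SE; limma, adjusted p = 0.492). Ndufa5, a Q module accessory subunit, had 1000.2, 1417, 1316 and 844 with GFP and 1022, 799, 1084 and 1031 with LCN2 (-0.20 ± 0.17). Ndufc2, a membrane-arm subunit, had 2272, 2874, 2577 and 1910 with GFP and 2278, 1900, 2169 and 2313 with LCN2 (-0.14 ± 0.13). In Ndufa5 and Ndufc2, unlike the core subunits, LCN2 replicate 2 was the lowest of the 8 samples. Ndufa7, a matrix-arm accessory subunit, had 2379, 2926, 2707 and 2214 with GFP and 2415, 2083, 2381 and 2563 with LCN2 (-0.11 ± 0.11), again with LCN2 replicate 2 lowest.

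The spread between samples was shared by nearly all members and was widest within the GFP group. The module mean is here the average over the 36 members of a sample's deviation from each gene's mean over the 8 samples of its depot. In gonadal fat it was -0.05, 0.27, 0.29 and -0.46 in GFP replicates 1 to 4 and 0.00, -0.21, 0.13 and 0.03 in LCN2 replicates 1 to 4, in log2 units. The highest and the lowest sample were both GFP, and the LCN2 samples lay between them. The SD was 0.35 with GFP and 0.14 with LCN2, while the group means differed by -0.03. GFP replicate 4 was the lowest of 8 samples in 32 of 36 members (24.5% of all genes were lowest there). LCN2 replicate 2 was the lowest in the other 4 (10.6% of all genes). The highest sample was GFP replicate 2 in 18 members (18.6% of all genes) and GFP replicate 3 in 13 (10.2%). It was LCN2 replicate 3 in 4 (14.8%) and LCN2 replicate 1 in 1 (9.50%).

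**Figure D2:**
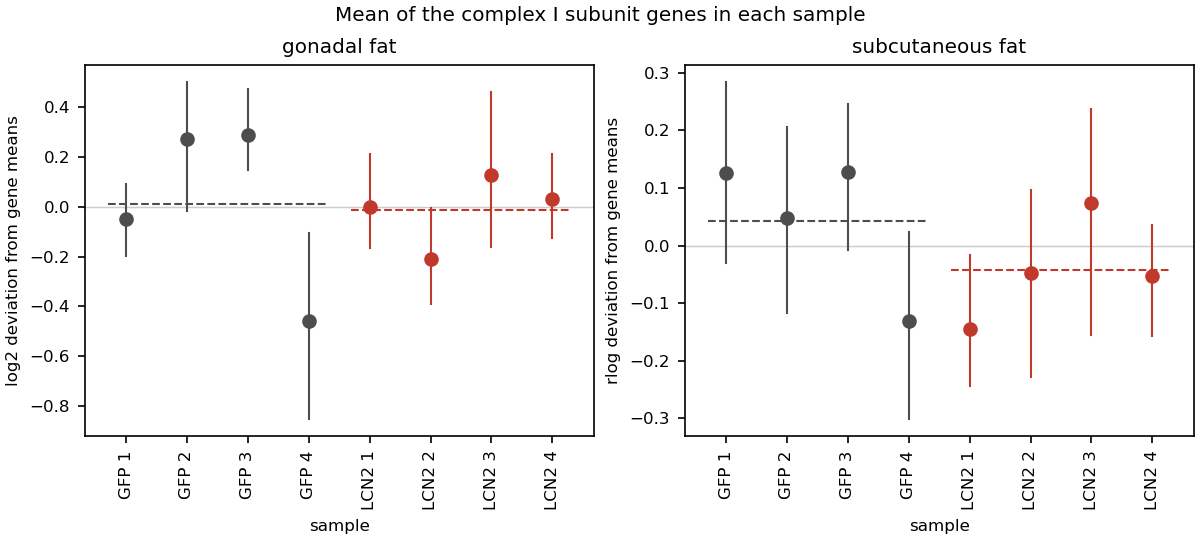
Module mean of the 36 complex I genes in each sample (points, log2 deviation from the depot mean), with vertical lines from the lowest to the highest member and dashed lines at the group means. In gonadal fat GFP replicate 4 lies at -0.46 and GFP replicate 3 at 0.29 with the LCN2 samples between them, and in subcutaneous fat 3 GFP samples lie at 0.05 to 0.13 and GFP replicate 4 at -0.13.

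The count of lower members in gonadal fat moved with the samples used. Without gonadal GFP replicate 4, 35 of 36 members were lower with LCN2 (50.8% of all genes), the median was -0.17, and 5 had an unadjusted p under 0.05 (19.6% of all genes), with 0 past the adjusted threshold (0.338%). Without GFP replicate 2 there were 9 lower (46% of all genes) and without GFP replicate 3 there were 10 (46.3%), with medians of 0.08 and 0.09. Without LCN2 replicate 2 there were 12 (46.8%) and without LCN2 replicate 3 there were 32 (48.3%).

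**Figure D3:**
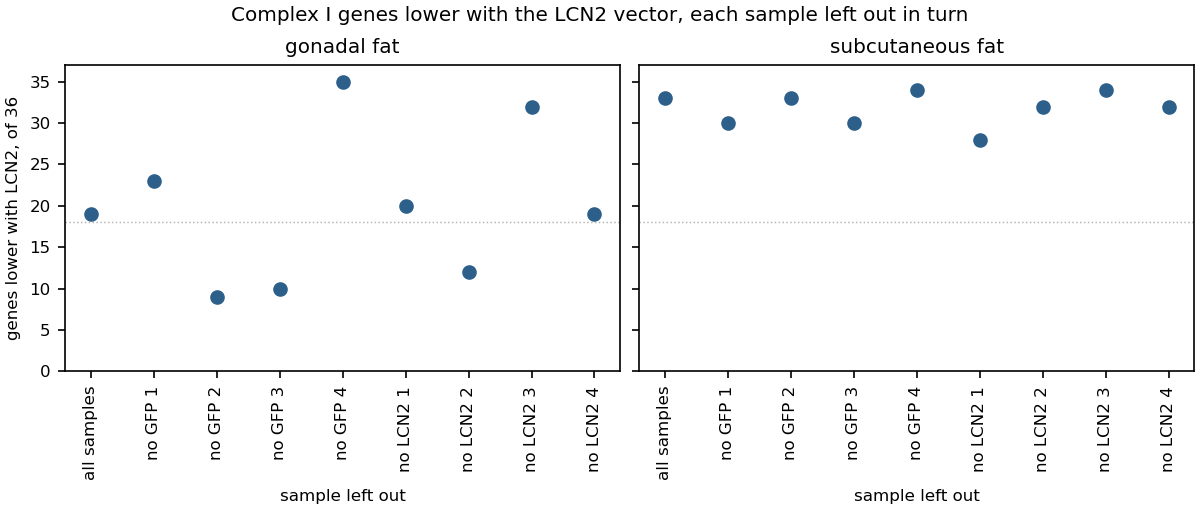
Number of the 36 complex I genes that were lower with LCN2 when each sample was left out in turn, for gonadal and subcutaneous fat, with a dotted line at 18. The gonadal count ranges from 9 without GFP replicate 2 to 35 without GFP replicate 4, and the subcutaneous count stays between 28 and 34.

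Transcripts of other cell types differed among these gonadal samples as well. Ucp1, the uncoupling protein of brown and beige fat cells, had 8.44, 1081, 938 and 4.97 normalized counts with GFP and 7819, 3.03, 2924 and 120 with LCN2. The samples with the lowest complex I module means, GFP replicate 4 and LCN2 replicate 2, were also those with the lowest Ucp1, but the highest Ucp1, in LCN2 replicate 1, stood beside a module mean of 0.00. The 8 brown and beige markers together took 0.00154% to 0.00677% of reads with GFP and 0.00264% to 0.0312% with LCN2. The 13 fat cell markers took 3.63% to 5.002% with GFP and 3.68% to 4.53% with LCN2, and their mean deviation was 0.39 and 0.37 in GFP replicates 2 and 3 and -0.35 in GFP replicate 4. GFP replicate 4 also had the highest share of reads from 8 fibroblast markers, at 0.483% against 0.221% to 0.369% in the other samples. The same sample was highest for 9 mesothelial markers (0.0404% against 0.00705% to 0.0212%), 10 macrophage markers (0.110% against 0.0593% to 0.101%) and 8 endothelial markers (0.129% against 0.0513% to 0.127%). LCN2 replicate 2, the second lowest in complex I, was highest for 12 hepatocyte markers (0.148% against 0.0164% to 0.0662%) and 6 erythroid markers (0.354% against 0.0946% to 0.224%). Between the vectors, 9 of 9 mesothelial markers (median -1.18) and 10 of 13 fat cell markers (-0.15) were lower with LCN2. Higher were 8 of 8 endothelial (0.43), 11 of 12 hepatocyte (1.35) and 6 of 6 erythroid markers (0.07). So were 13 of 13 tested skeletal muscle markers (1.75) and 7 of 8 brown and beige markers (1.14). Limma called 0 genes of these lists. The part of these differences in the complex I values was not tested. In tissue RNA, fewer cells of a type and less RNA per cell cannot be told apart.

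In subcutaneous fat no member passed the test either, but most lay lower with LCN2. Limma called 0 of 36 members (0% of 20302 genes), and 6 (16.7%) had an unadjusted p under 0.05, where 14% of all genes did, so the share was near the background. All 6 were lower (6.24% of all genes were lower at that p). Lower with LCN2 were 33 members and higher were 3 (50.2% of all genes were lower), with a median of -0.08 rlog units against 0.00 for all genes. The range of differences was narrow, from -0.23 (Ndufa6) to 0.10 (Ndufv3), with standard errors of 0.05 to 0.14 and adjusted p of 0.308 to 0.980. In 2 members, Ndufa6 and Ndufc2, every LCN2 sample was below every GFP sample (3.27% of all genes), and in none was every one above (3.81%). Rlog values draw low genes towards their mean, which was not measured for these members, whose GFP means were 8.77 to 12.00. No count test could be made on rlog values.

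The 6 members with the smallest p came from every region of the enzyme. Ndufs7 had rlog values of 10.95, 11.01, 10.94 and 10.75 with GFP and 10.65, 10.71, 10.65 and 10.80 with LCN2, a difference of -0.21 ± 0.07 (SE; limma, unadjusted p = 0.0131, adjusted p = 0.308). Ndufc2 had 11.03, 11.14, 11.08 and 10.98 with GFP and 10.87, 10.98, 10.95 and 10.92 with LCN2 (-0.13 ± 0.05). Ndufa5 had 10.17, 10.15, 10.19 and 9.89 with GFP and 9.93, 9.89, 9.86 and 9.97 with LCN2 (-0.19 ± 0.07). In Ndufs7 and Ndufa5 GFP replicate 4 was the only GFP sample within the LCN2 range, while in Ndufc2 the nearest samples of the groups almost touched. Ndufb5, a distal membrane-arm subunit, had 10.80, 10.72, 10.67 and 10.51 with GFP and 10.45, 10.45, 10.59 and 10.52 with LCN2 (-0.18 ± 0.07). Ndufv2 had 11.52, 11.51, 11.54 and 11.22 with GFP and 11.15, 11.19, 11.36 and 11.29 with LCN2 (-0.20 ± 0.09). GFP replicate 4 again lay among the LCN2 samples, and the unadjusted p of these 4 genes lay between 0.0290 and 0.0487.

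The remaining core subunits overlapped between the groups. Ndufs1 had rlog values of 11.99, 11.90, 11.94 and 11.53 with GFP and 11.55, 11.65, 11.80 and 11.74 with LCN2 (-0.15 ± 0.11). Ndufv1 had 11.93, 11.79, 11.87 and 11.53 with GFP and 11.60, 11.74, 11.82 and 11.68 with LCN2 (-0.07 ± 0.09). Both had their lowest value in GFP replicate 4, the control sample that also stood low in Ndufa5 and Ndufv2. Ndufs3 had 11.33, 11.27, 11.33 and 11.06 with GFP and 10.98, 11.14, 11.26 and 11.17 with LCN2 (-0.11 ± 0.08). Ndufs8 had 10.56, 10.36, 10.40 and 10.08 with GFP and 10.03, 10.14, 10.44 and 10.17 with LCN2 (-0.15 ± 0.12). In these Q module genes LCN2 replicate 1 was the lowest sample, a little under GFP replicate 4.

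The 3 members that were higher with LCN2 in subcutaneous fat were Ndufv3, Ndufb3 and Ndufs5, none of which passed the test. Ndufv3, a small N module subunit, had rlog values of 11.31, 11.15, 11.20 and 10.98 with GFP and 11.16, 11.26, 11.37 and 11.24 with LCN2 (0.10 ± 0.08). Ndufb3 had 10.90, 10.80, 11.06 and 10.78 with GFP and 10.75, 11.02, 11.15 and 10.91 with LCN2 (0.07 ± 0.10). The highest LCN2 value was in replicate 3 in both genes, and the groups overlapped. For Ndufs5, an accessory subunit of the membrane arm that faces the intermembrane space, the difference was 0.02 ± 0.10.

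The subcutaneous module mean was 0.13, 0.05, 0.13 and -0.13 in GFP replicates 1 to 4 and -0.15, -0.05, 0.07 and -0.05 in LCN2 replicates 1 to 4. GFP replicates 1 and 3 were the highest samples, GFP replicate 4 lay with the low LCN2 samples and LCN2 replicate 3 with the high GFP samples. The group means differed by -0.09, with SDs of 0.12 and 0.09. The lowest sample was LCN2 replicate 1 in 18 members (9.20% of all genes) and GFP replicate 4 in 13 (13.3%). The highest was GFP replicate 1 in 14 (23.7% of all genes), GFP replicate 3 in 13 (8.31%) and LCN2 replicate 3 in 7 (21.2%). Leaving out GFP replicate 4 raised the members with an unadjusted p under 0.05 from 6 to 13 (18.8% of all genes) and the median to -0.15.

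GFP replicates 1 and 2 of subcutaneous fat held lymph node transcripts, with a summed linear value of 18803 and 10748 over 14 marker genes against 841 to 4299 in the other samples. All 14 of those markers were detected, and all 14 were lower with LCN2 (median -1.35). Without both libraries only GFP replicates 3 and 4 remained as controls. Then 28 of 36 members were lower (47.3% of all genes), with a median of -0.04. The share of all genes with an unadjusted limma p under 0.05 fell from 14% to 4.53%, and the count of members from 6 to 0. That count was 2 without GFP replicate 2 alone (7.12% of all genes), GFP replicate 3 (19.2%) or LCN2 replicate 1 (14.2%). It was 3 without GFP replicate 1 (9.16%), LCN2 replicate 2 (9.02%) or LCN2 replicate 4 (11.2%). The 8 brown and beige markers had mean deviations of 1.35, -0.10, -0.33 and 0.73 with GFP and -0.10, -0.65, -0.41 and -0.49 with LCN2. Of these 8 markers 7 were lower with LCN2 (median -0.59), while 9 of 13 fat cell markers were higher (0.08). Endothelial markers were higher with LCN2 in 8 of 8 cases (median 0.46), with summed linear values of 17590 to 30640 with GFP and 28903 to 33161 with LCN2. Macrophage markers were higher in 9 of 10 (0.15; 19426 to 27899 with GFP and 19624 to 28276 with LCN2), fibroblast markers in 7 of 8 (0.25; 70625 to 173060 and 127626 to 219674) and erythroid markers in 6 of 6 (0.15; 24055 to 41318 and 29906 to 41124). Hepatocyte markers were lower in 11 of 12 (-0.75), with a sum of 14804 in GFP replicate 2 against 5537 to 6217 in the other samples. Limma called 0 genes of these lists, and their part in the complex I values was not tested.

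The members varied together across the samples of each depot. The first principal component held 88.7% of the members' variance in gonadal fat, where that of all tested genes held 31.3%, and 76.8% in subcutaneous fat, where that of all genes held 58.8%. The median correlation between pairs of members was 0.89 and 0.77 over the 8 samples, which share library and scaling. In gonadal GFP replicate 4 the mean deviations of the N core and Q core genes were -0.69 and -0.50, against -0.37 and -0.42 for the accessory subunits of the N and Q modules. The proximal and distal membrane-arm subunits lay at -0.44 and -0.45 in the same sample. In subcutaneous fat the median difference with LCN2 was -0.15 for each of the 3 N core and 3 Q core genes, -0.10 and -0.13 for the N and Q accessory genes and -0.06 for the 9 proximal and for the 10 distal membrane-arm genes. The differences between these classes were not tested.

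Values were also taken relative to the rest of the complex, where a few members separated between the vectors. Relative to the mean of the other 35 members, Ndufa6 was lower in every LCN2 sample than in any GFP sample of gonadal fat, by 0.27, and so was Ndufa5, by 0.18. Per sample, the relative log2 value of Ndufa6 was 0.06, 0.19, -0.06 and 0.36 with GFP and -0.10, -0.10, -0.26 and -0.09 with LCN2. Ndufb3 was relatively higher in every LCN2 sample, at -0.15, -0.30, -0.03 and -0.13 with GFP and 0.08, 0.21, 0.13 and 0.19 with LCN2, a difference of 0.30. This scale removes the spread that the members share. On it the groups did not overlap in 3 of 36 members (2.57% of all genes, each taken relative to the mean of the members). The subtraction adds the members' spread to genes that do not share it, so shares of all genes on this scale are not an even background. Without the subtraction, 4.71% of all genes in gonadal fat had every LCN2 sample below every GFP sample and 4.4% every one above. In subcutaneous fat the same scale separated 2 of 36 members (7.47% of all genes), a smaller share than among all genes. They were Ndufv3, at -0.03, -0.11, -0.14 and -0.10 with GFP and 0.10, 0.11, 0.09 and 0.09 with LCN2, and Ndufb8, a membrane-arm subunit, by 0.06. Ndufa6 overlapped there on the relative scale, with a difference of -0.15, as did Ndufb3 with 0.16. These members were picked out after their values were seen, and the relative values carry no test.

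**Figure D4:**
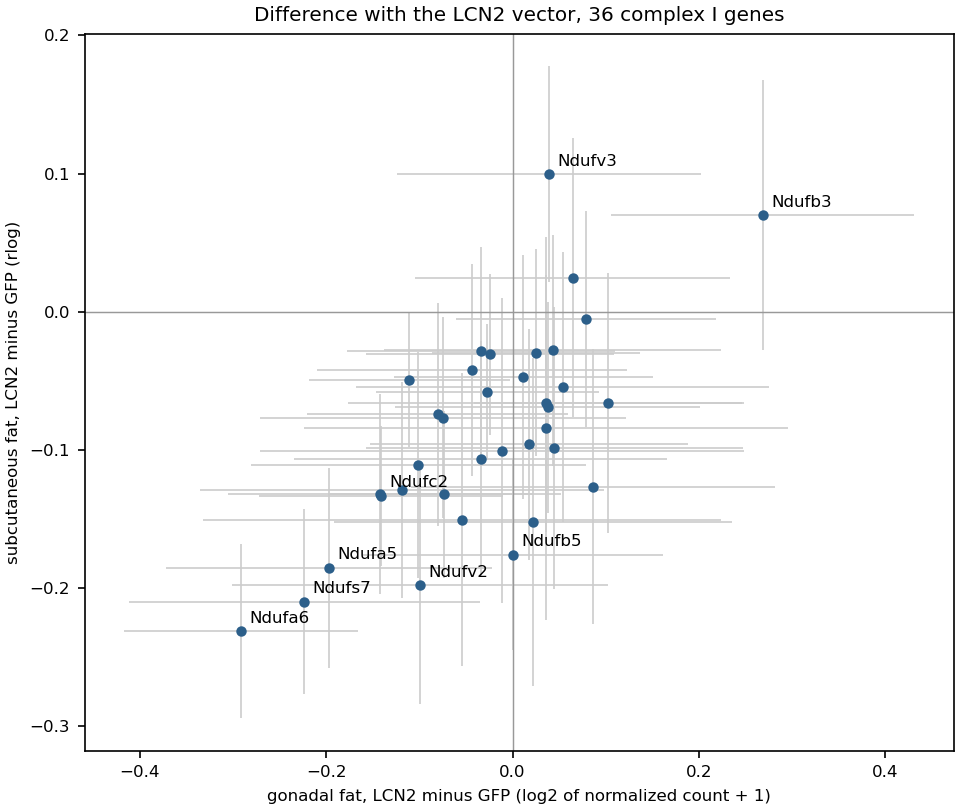
Difference between LCN2 and GFP for each of the 36 complex I genes in gonadal fat (horizontal, log2 of the normalized count plus 1) and in subcutaneous fat (vertical, rlog units), with bars of 1 SE. Ndufa6 and Ndufs7 lie lowest on both axes and Ndufb3 is the furthest right, and 33 of the 36 points are below 0 on the vertical axis.

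The differences of the members ran in a similar order in both depots. The depots share no library, but the labels do not say whether they share mice. Across the 36 genes the Pearson correlation was 0.70 and the Spearman correlation 0.62, against a Pearson correlation of 0.27 across the 19109 genes tested in both. These are descriptions across genes, which are not independent. Lower in both depots were 19 members and higher in both were 3, while 14 were higher in gonadal and lower in subcutaneous fat and 0 the reverse. Of the 6 members with the smallest p, 4 were shared by the depots, namely Ndufa6, Ndufs7, Ndufc2 and Ndufa5. Whether the effect differs between depots was not tested, because the tables had been normalized separately.

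The 7 subunits that mitochondrial DNA encodes did not pass the test in either depot. In gonadal fat 3 of 7 were lower with a median of 0.08, and in subcutaneous fat 6 of 7 were lower with a median of -0.12. The smallest p among them in subcutaneous fat was that of mt-Nd3, a membrane-arm subunit, with rlog values of 15.19, 14.93, 14.84 and 14.73 with GFP and 14.65, 14.76, 14.69 and 14.46 with LCN2 (-0.28 ± 0.12; limma, adjusted p = 0.339). Their gonadal module values, 0.08, 0.16, 0.27 and -0.57 with GFP and 0.32, -0.17, 0.22 and -0.30 with LCN2, were lowest in GFP replicate 4, as for the nuclear members, and next lowest in LCN2 replicate 4.

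The factors that assemble the complex were divided in direction in both depots. Of 18 listed assembly factors 17 were matched and tested, with 11 lower and 6 higher in each depot, medians of -0.04 and -0.02, and 0 called by limma. In subcutaneous fat Ndufaf4, an early assembly factor, was the only one of the 17 whose groups did not overlap. Its rlog values were 8.98 to 9.25 with GFP and 8.74 to 8.96 with LCN2 (-0.21 ± 0.08; adjusted p = 0.326 by limma). Among all genes there, 3.27% had every LCN2 sample below every GFP sample and 3.81% every one above. Ndufaf1, which acts on the membrane arm, was at 0.10 ± 0.06. In gonadal fat the smallest p among assembly factors belonged to Tmem186, at -0.19 ± 0.10, and Ndufaf8, at -0.17 ± 0.11.

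Other respiratory chain genes had medians close to those of the complex I members. Of 39 subunit genes of complexes II to V, 21 were lower in gonadal fat with a median of -0.02, and 37 were lower in subcutaneous fat with a median of -0.11, and 0 were called in either depot. In subcutaneous fat the medians were -0.14 for 4 genes of complex II and for 9 of complex III, -0.11 for 11 of complex IV and -0.08 for 15 of complex V. Among them Uqcrh, the hinge protein of complex III, was at -0.24 ± 0.08 and Atp5g2, a gene of the proton-driven ring of ATP synthase, at -0.19 ± 0.05. Of 13 genes often used as a measure of mitochondrial content, such as those of porins and import receptors, 7 were lower there with a median of -0.02. Genes of the mitochondrial ribosome were divided, with 12 of 25 lower and a median of 0.01.

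**Figure D5:**
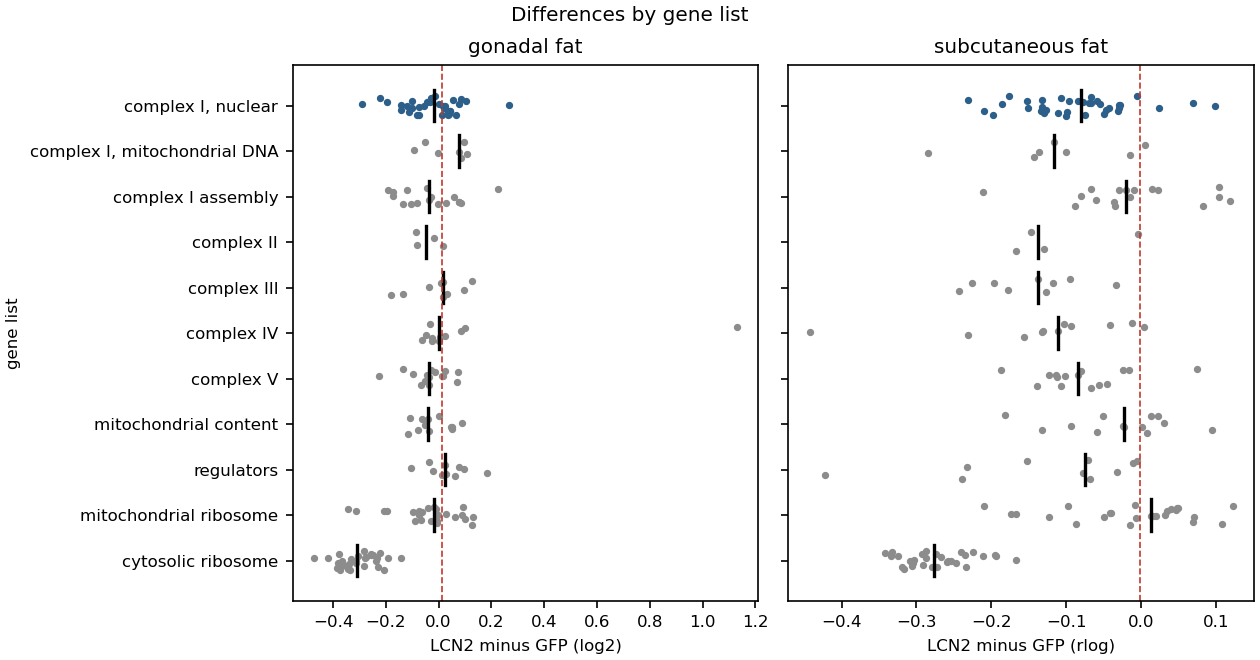
Difference between LCN2 and GFP for every tested gene of the complex I members and of the other gene lists (dots), with the median of each list (black tick) and the median of all tested genes (red dashed line), in log2 units for gonadal fat and rlog units for subcutaneous fat. The complex I median is -0.02 in gonadal and -0.08 in subcutaneous fat, and the 30 cytosolic ribosome genes have the lowest median of the plotted lists in both depots, at -0.31 and -0.28, although single genes of other lists lie lower.

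Of the 10 regulators of mitochondrial genes, 10 were lower in subcutaneous fat (median -0.07) and 3 in gonadal fat (median 0.03), with 0 called. Esrra, the oestrogen-related receptor that drives respiratory chain genes, had rlog values of 10.26, 10.25, 10.21 and 10.12 with GFP and 9.83, 9.93, 10.07 and 10.06 with LCN2 (-0.24 ± 0.07; limma, adjusted p = 0.308). Ppargc1b, a coactivator of that receptor, had 8.87, 8.41, 8.37 and 8.42 with GFP and 7.92, 8.08, 8.35 and 8.05 with LCN2 (-0.42 ± 0.13). In these 2 of the 10 genes every LCN2 sample was below every GFP sample (3.27% of all genes), and in the others the groups overlapped. In gonadal fat the smallest p in the list were those of Gabpb1, a partner of the ETS factor, at 0.18 ± 0.12, and Tfb2m, a mitochondrial transcription factor, at -0.11 ± 0.11.

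The cytosolic ribosome, another set of housekeeping genes that vary together, had another pattern across the samples. Its 30 genes were lower with LCN2 in 30 of 30 cases in both depots, with medians of -0.31 and -0.28, and limma called 0 of them. In gonadal fat their mean deviation was -0.02, 0.27, 0.06 and 0.30 with GFP and -0.07, -0.25, -0.20 and -0.09 with LCN2. GFP replicate 4, the lowest sample of complex I, was thus the highest of the ribosome genes. In gonadal fat 26 of 30 genes had an unadjusted limma p under 0.05 (14.8% of all genes), and in subcutaneous fat 29 of 30 (14%). Of the 36 complex I members 1 and 6 did. Genes of a set that vary together are not separate results.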

How the data were processed

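RNA libraries of gonadal and subcutaneous fat were compared between LCN2 and GFP vectors within each depot, 4 samples against 4, grouped by their titles. The submitters' processing notes name HISAT2, DESeq2 and the builds mm10 and GRCm38; not given in the sources used here were their versions, the annotation, the counting tool and its strand setting. The gonadal table that the authors deposited holds a signal, each gene's reads after division by a sample's size factor. Relative to the value of 1 read, 100% of these values were whole within 1e-06 in all 8 samples. The subcutaneous table was deposited as rlog, on a log2 scale that keeps no depth. A symbol from GENCODE matched 99.2% of the genes in each table.

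With R 4.3.3, limma 3.58.1 (using a trend of variance on level) was fitted to log2 of the gonadal value plus 1 for 19536 genes with a mean of at least 10, and to rlog for 20302 genes with a mean of at least 3. P-values were adjusted over all tested genes, and a call is an adjusted p under 0.05. edgeR 4.0.16 and DESeq2 1.42.0 were run on the recovered reads of 6 gonadal samples; LCN2 replicates 2 and 4 were left out of these, because the values of 1 read there were too close to 1 for the automatic test of whole reads. The functions were tested on simulated data. No gonadal pair agreed within sampling noise (mean chi-square per gene of at least 45.8), and subcutaneous pairs differed with an SD of at least 0.20. Replicate numbers did not pair the samples.

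The members and all gene lists were chosen with earlier results of these data known. Values per sample are given for the 6 members with the smallest p in each depot and for 6 core subunits, and for at most 2 genes of each other list. Other members that are named set a range or a small count and were chosen after their values were seen. Alternatives changed the scaling, pseudocount, filter, trend, weights, replicate block and samples. Promoters come from RefSeq, GRCm38.p6.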

Additional observations from a re-analysis of the deposited data

Results flagged for a closer look

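In 6 of the groups of 4 samples, 1 sample lay far from the other 3 by Dixon's criterion, which chance alone meets in about 1 of 20 groups; 74 groups were examined in each depot. In gonadal fat Ndufb11 had 1980 normalized counts in LCN2 replicate 2 and 2252 to 2306 in the other LCN2 samples. In subcutaneous fat GFP replicate 4 stood below the other GFP samples in Ndufa5, with an rlog of 9.89 against 10.15 to 10.19, in Ndufb10, with 10.94 against 11.15 to 11.18, and in Ndufv2, with 11.22 against 11.51 to 11.54. LCN2 replicate 3 stood above the other LCN2 samples in Ndufb11, with 11.06 against 11.00 to 11.01, and in Ndufc1, with 9.97 against 9.77 to 9.78.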

How the results depend on the processing

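The 36 members had 0 calls under all 19 gonadal and 15 subcutaneous alternatives, and their lowest adjusted p was 0.151 and 0.0557, the latter with sample quality weights. Gonadal genes called numbered 20 as reported, 6 with scaling by library totals, 13 with TMM scaling, 0 with the replicate block, 0 without the 2 libraries highest in muscle genes, 0 without the 3 highest in hepatocyte genes, and between 1 and 66 when single samples were left out, the most without GFP replicate 4; fewer than 14 were called without GFP replicate 1 (2), GFP replicate 2 (1), GFP replicate 3 (1), LCN2 replicate 3 (1) or LCN2 replicate 4 (3). On the 6 samples with accepted reads, an alternative chosen after seeing the data, limma called 0 genes, edgeR 1 and DESeq2 231; the planned count tests on all 8 samples were not run. Gonadal members lower with LCN2 were 9 to 35 over the left-out samples, with a median difference of -0.17 to 0.09; subcutaneous ones were 28 to 34, with -0.15 to -0.04. Median centring of the subcutaneous values left 32 lower (42.3% of all genes) and 2 at an unadjusted p under 0.05 (13.7%). Among named members the gonadal difference changed sign in Ndufs1 (0.076 without the muscle libraries, 0.073 without the hepatocyte libraries, 0.043 with limma on 6 samples) and Ndufv2 (0.023 without the hepatocyte libraries), and the subcutaneous one in Ndufv1 (0.014 without the lymph node libraries). Over left-out samples the gonadal difference ran from -0.35 to 0.10 in Ndufs1, -0.18 to 0.16 in Ndufs8, -0.19 to 0.16 in Ndufv1 and -0.30 to 0.029 in Ndufv2. The cause was not tested. Samples of equal number correlated at -0.36 to 0.42 in gonadal and -0.36 to 0.34 in subcutaneous fat, and 3 and 2 of 8 samples correlated best with their own number; with the replicate block 0 gonadal members (13.5% of all genes) and 3 subcutaneous members (15.8%) had an unadjusted p under 0.05, and 19 and 33 were lower. Subcutaneous depth is unknown, and what it adds to the error was not tested.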
